A study of Mus musculus with 23 samples.

Results

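The data describe what 1 Gy of whole-body gamma radiation did to the spleen transcriptome of male C57BL/6J and DBA/2J mice alike, 24 h after exposure. The comparison takes the 16 arrays of the high dose and control groups out of 23 arrays in all: 4 high dose and 4 control pools of each strain, chosen by the strain and treatment labels. High dose means 1 Gy delivered by 60Co at 6 Gy/min, and control mice were sham exposed. A further 7 arrays hold low dose pools (10 cGy delivered by 137Cs at 9 cGy/h, in 4 pools of C57BL/6J and 3 of DBA/2J), which serve below to show where the 1 Gy response differs. All mice were 10 weeks old, and each array carried RNA mixed from the spleens of 2 mice, so an SD, SE or p-value here rests on the spread between pools and not between single mice. C57BL/6J and DBA/2J are inbred strains, the parents of the BXD recombinant inbred lines. Dose, dose rate and source change together between the irradiated groups and cannot be told apart.

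In mammalian cells ionizing radiation breaks DNA, and the transcription factor p53 is stabilized and switches on genes that stop the cell cycle, repair DNA or start cell death. The mouse spleen keeps red cell production into adult life: dividing erythroid precursors mature in the red pulp beside macrophages that recycle iron, while the white pulp holds B and T cells. Dividing precursors and resting lymphocytes are both known as radiosensitive cells.

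Between 14630 and 16002 probes were detected on the 16 arrays, the median signal ran from 99.8 to 137, and pairs of pools within a group correlated at 0.977 to 0.994 over the features tested. No pair of pools in a group shared an equal set of signals. Defining markers of spleen were present: the mean log2 signal of 18 B cell genes lay between 10.55 and 11.27, that of 17 T cell genes between 9.06 and 10.09 and that of 22 macrophage and monocyte genes between 10.93 and 11.75 in all 16 pools. Of these lists, 17 of 18, 17 of 17 and 21 of 22 members had a positive 1 Gy change, as had 9262 of all 16112 features tested. Transcripts of the exocrine pancreas stood out in 1 control and 1 high dose pool of C57BL/6J. The mean log2 signal of 11 pancreatic genes was 13.74 and 14.05 there, against at most 6.84 in the other 14 pools. With both of these pools left out the count of called features was 2880, against 3223 with them. Adipose genes (3 measured) ranged from 5.21 to 8.99 over the pools.

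Values below are normalized log2 signals, or differences between them (1 Gy minus control, with strain as a block, ± SE), and a change is called at a Benjamini-Hochberg adjusted p under 0.05 from limma over all features tested. Of 16112 features, 10744 of them with a gene symbol, 3223 were called (20.0%): 1907 were higher (11.8%) and 1316 lower (8.17%) after 1 Gy, and 5170 had an unadjusted p under 0.05. Falls were larger than rises. The median called rise was 0.41 and the median called fall -0.67, with 19 called features more than 1 above control on the log2 scale and 394 more than 1 below. The median over all features was 0.039. In 3209 of the 3223 called features the change had the same sign in each strain, and in 14 it did not.

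A stricter test asked for the same direction in each strain, with the larger of both strain p-values adjusted over all features. It called 502 features, 105 higher (0.652%) and 397 lower (2.46%). Of these, 326 are described as alike, because the smaller of their strain changes was at least 0.7 of the larger: 89 rose, 75 of them with a gene symbol, and 237 fell, 182 of them with a symbol. The pools of the dose groups did not overlap in either strain for 413 higher (2.56%) and 630 lower (3.91%) features. The plot of the change in one strain against the other shows Ccng1, Zmat3 and part of the cell cycle genes close to the line of equal change, while most erythroid genes had a larger negative value in C57BL/6J than in DBA/2J.

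**Figure D1:**
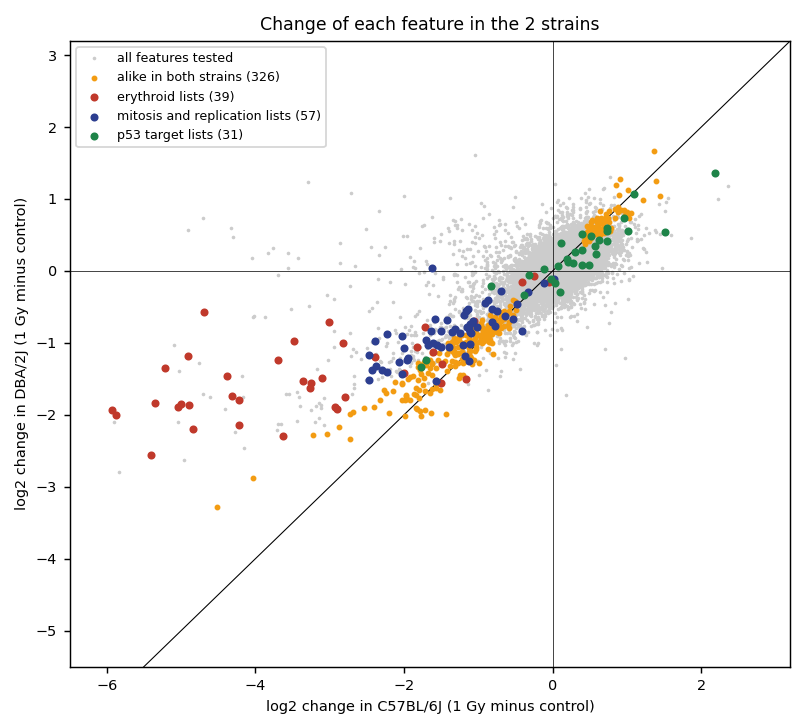
Change after 1 Gy in C57BL/6J (x axis) against DBA/2J (y axis), both as log2 differences of group means of 4 pools; each grey point is 1 of 16112 features and the line marks equal change. The 326 features called alike lie along the line by the rule that chose them, and most of the 39 measured erythroid genes lie to the left of it (not Bpgm, Hbq1a and Steap3), with changes in C57BL/6J down to -5.93.

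Targets of p53 were among the largest rises shared by the strains. Of 13 measured p53 targets for arrest and feedback, 8 rose and 2 fell (median 0.50), against 11.8% higher and 8.17% lower over all features. Of 18 targets for death, repair and metabolism, 6 rose and 2 fell (median 0.24). Cdkn1a, the p21 inhibitor of cyclin-dependent kinases, read 8.46, 7.96, 7.98 and 7.84 in the C57BL/6J control pools, 10.37, 10.75, 10.24 and 9.61 in the C57BL/6J 1 Gy pools, 8.73, 8.35, 8.31 and 7.83 in the DBA/2J control pools and 9.47, 9.89, 9.67 and 9.62 in the DBA/2J 1 Gy pools. All 8 irradiated pools lay above all 8 control pools, and the rise was 1.77 ± 0.18 (adjusted p = 4.51e-06, and 0.00231 in the test of both strains). Its promoter is printed here as the reference case of a p53 target, with p53 half-sites in capitals.

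Cdkn1a: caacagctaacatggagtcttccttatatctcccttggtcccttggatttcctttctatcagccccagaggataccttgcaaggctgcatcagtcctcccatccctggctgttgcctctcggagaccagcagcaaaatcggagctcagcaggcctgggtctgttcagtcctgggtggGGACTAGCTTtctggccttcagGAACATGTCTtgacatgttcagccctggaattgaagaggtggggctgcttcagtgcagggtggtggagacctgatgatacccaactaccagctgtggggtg

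This window spans 250 bases before to 50 after the start (RefSeq, GRCm38.p6, chr17:29090729-29091028, plus strand), and holds 2 half-sites, whose first bases lie at positions -73 and -51 from the start.

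Ccng1 (cyclin G1) moved by nearly the same amount in the strains, 1.09 in C57BL/6J and 1.06 in DBA/2J. It read 10.09, 9.77, 10.13 and 9.95 in the C57BL/6J control pools, 11.30, 11.24, 10.83 and 10.94 in the C57BL/6J 1 Gy pools, 9.85, 9.80, 9.94 and 9.73 in the DBA/2J control pools and 10.87, 10.98, 10.98 and 10.74 in the DBA/2J 1 Gy pools. The dose groups were far apart in each strain, with a rise of 1.08 ± 0.085 (adjusted p = 7.34e-07), the smallest adjusted p among the p53 targets. Zmat3, an RNA-binding p53 target, read 8.62, 8.94, 8.52 and 8.29 in the C57BL/6J control pools, 9.91, 9.73, 9.42 and 9.16 in the C57BL/6J 1 Gy pools, 8.88, 8.94, 8.68 and 8.57 in the DBA/2J control pools and 9.75, 9.73, 9.37 and 9.18 in the DBA/2J 1 Gy pools. Its irradiated pools were higher than the control pools of the same strain throughout, by 0.85 ± 0.13 (adjusted p = 0.000137).

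Plk2, a polo-like kinase, rose by 0.66 ± 0.094, and Ephx1, the microsomal epoxide hydrolase, by 0.64 ± 0.093. Both were alike in the strains, with adjusted p = 8.83e-05 and 9.98e-05. Phlda3, a repressor of Akt signalling, rose by 1.03 ± 0.17 on average, and its values were 1.52 in C57BL/6J and 0.54 in DBA/2J. It was not called in the test of both strains (adjusted p = 0.152). Mdm2, the ubiquitin ligase that degrades p53, read 10.77, 10.81, 10.87 and 10.65 in the C57BL/6J control pools, 11.03, 11.33, 11.57 and 11.22 in the C57BL/6J 1 Gy pools, 10.68, 11.12, 10.53 and 10.71 in the DBA/2J control pools and 11.34, 11.43, 11.07 and 11.15 in the DBA/2J 1 Gy pools. The dose groups were apart in C57BL/6J and overlapped in DBA/2J. The averaged change of Mdm2 was 0.50 ± 0.097 (adjusted p = 0.00136), with 0.082 in the test of both strains. Its values, 0.51 and 0.48, were close to each other.

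Rises were also called on average for Dcxr, a carbonyl reductase (0.79 ± 0.12), Plk3 (0.53 ± 0.11), Trp53inp1 (0.46 ± 0.087) and the nuclease Aen (0.45 ± 0.11). Pmaip1, the proapoptotic Noxa, rose by 0.57 on average (adjusted p = 0.0057). The change was 0.73 in C57BL/6J and 0.41 in DBA/2J, or as bounds at least 1.66-fold and 1.29-fold. Its deposited detection p missed 0.05 in every control pool. Control signals nevertheless reached 232 in C57BL/6J and 169 in DBA/2J, above the 104 to 140 found at a detection p of 0.05. Bbc3, the proapoptotic Puma, was at 0.29 ± 0.11 and missed the threshold (adjusted p = 0.078). The death receptor gene Fas was at -0.097 ± 0.14 (adjusted p = 0.698) on the probe that passed the detection filter. A second Fas probe, detected on 1 of 16 arrays by its deposited detection p although its signals ran from 132 to 365, gave 0.60. The Fas result therefore rests on the choice of probe, and the cause of the disagreement was not tested.

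Gadd45a, a stress gene that p53 is known to induce, went the other way. It read 11.48, 11.95, 11.39 and 11.46 in the C57BL/6J control pools, 9.60, 9.90, 9.66 and 10.00 in the C57BL/6J 1 Gy pools, 12.23, 11.73, 11.51 and 11.14 in the DBA/2J control pools and 10.07, 10.33, 10.58 and 10.29 in the DBA/2J 1 Gy pools. Every irradiated pool lay below every control pool, with a change of -1.56 ± 0.14 (adjusted p = 1.86e-06). Ckap2, a microtubule protein gene that is listed as a p53 target and is also needed in mitosis, read 7.699, 8.47, 8.20 and 8.69 in the C57BL/6J control pools, 6.18, 6.29, 6.64 and 7.14 in the C57BL/6J 1 Gy pools, 9.08, 8.33, 8.49 and 8.35 in the DBA/2J control pools and 6.79, 7.196, 7.76 and 7.57 in the DBA/2J 1 Gy pools. It changed by -1.47 ± 0.19 (adjusted p = 3.23e-05), and the irradiated pools of each strain lay below its control pools. Smaller falls were called for Gtse1, a mitotic protein that restrains p53 (-0.36 ± 0.12), and Pidd1 (-0.52 ± 0.17), and the Pidd1 call was lost on leaving out any of 9 single pools. The Gtse1 call was not firm either. Each p53 list had 1 to 2 falls without single pools, where Gadd45a and Ckap2 were always called. The promoters of Gadd45a and Ckap2 are printed by a rule on size. After Cdkn1a they had the largest changes among p53 list members called in both strains with a promoter entry. Both fell while most called members of their lists rose. Capitals mark p53 half-sites.

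Gadd45a: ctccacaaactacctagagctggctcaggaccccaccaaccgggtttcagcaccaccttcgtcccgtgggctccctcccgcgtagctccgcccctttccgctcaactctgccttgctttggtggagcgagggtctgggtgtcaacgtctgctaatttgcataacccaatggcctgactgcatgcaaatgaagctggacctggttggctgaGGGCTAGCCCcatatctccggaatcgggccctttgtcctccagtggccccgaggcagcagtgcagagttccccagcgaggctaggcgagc
Ckap2: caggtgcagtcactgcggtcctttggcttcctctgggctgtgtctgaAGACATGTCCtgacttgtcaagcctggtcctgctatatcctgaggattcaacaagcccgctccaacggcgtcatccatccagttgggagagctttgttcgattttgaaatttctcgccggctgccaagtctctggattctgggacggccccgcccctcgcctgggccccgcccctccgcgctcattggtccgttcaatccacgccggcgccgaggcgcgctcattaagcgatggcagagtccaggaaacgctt

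Each window (GRCm38.p6; chr6:67037358-67037657, minus strand, and chr8:22185770-22186069, minus strand) holds 1 half-site, at position -40 from the start of Gadd45a and -203 from that of Ckap2. Letters of the p53 half-site occur, on either strand, in 8 of 27 promoters of measured p53 targets with an entry (29.6%) and in 2261 of 27025 promoters in the table (8.37%). The same letters occurred in 4 of 20 promoters of mitosis genes (20%), 3 of 25 of replication genes (12%) and 1 of 28 of erythroid genes (3.57%). A match of letters is a description of the window and not evidence of binding.

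Among BCL2 family genes, which set the threshold for mitochondrial cell death, 5 rose and 2 fell of 14 measured (median 0.23), against 11.8% higher and 8.17% lower over all features. Both falls were called without each single pool, while the rises numbered 2 to 6 without single pools and 1 to 6 over the other settings. The falls were larger and shared by the strains. Bcl2l1, the survival factor Bcl-xL, read 8.11, 8.71, 8.26 and 8.53 in the C57BL/6J control pools, 6.31, 6.11, 6.37 and 6.74 in the C57BL/6J 1 Gy pools, 9.35, 8.85, 8.80 and 8.39 in the DBA/2J control pools and 6.94, 7.01, 7.68 and 7.46 in the DBA/2J 1 Gy pools. Its dose groups did not overlap, and the change was -1.80 ± 0.16 (adjusted p = 1.28e-06). Bnip3l (Nix), which removes mitochondria from maturing red cells, changed by -0.88 ± 0.096 (adjusted p = 7.52e-06). The rises, 0.35 for Bik to 0.42 for Bcl2a1a, were not called in both strains. The call for Bcl2a1a, one of a family of near-identical copies, was lost on leaving out any of 7 single pools.

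**Figure D2:**
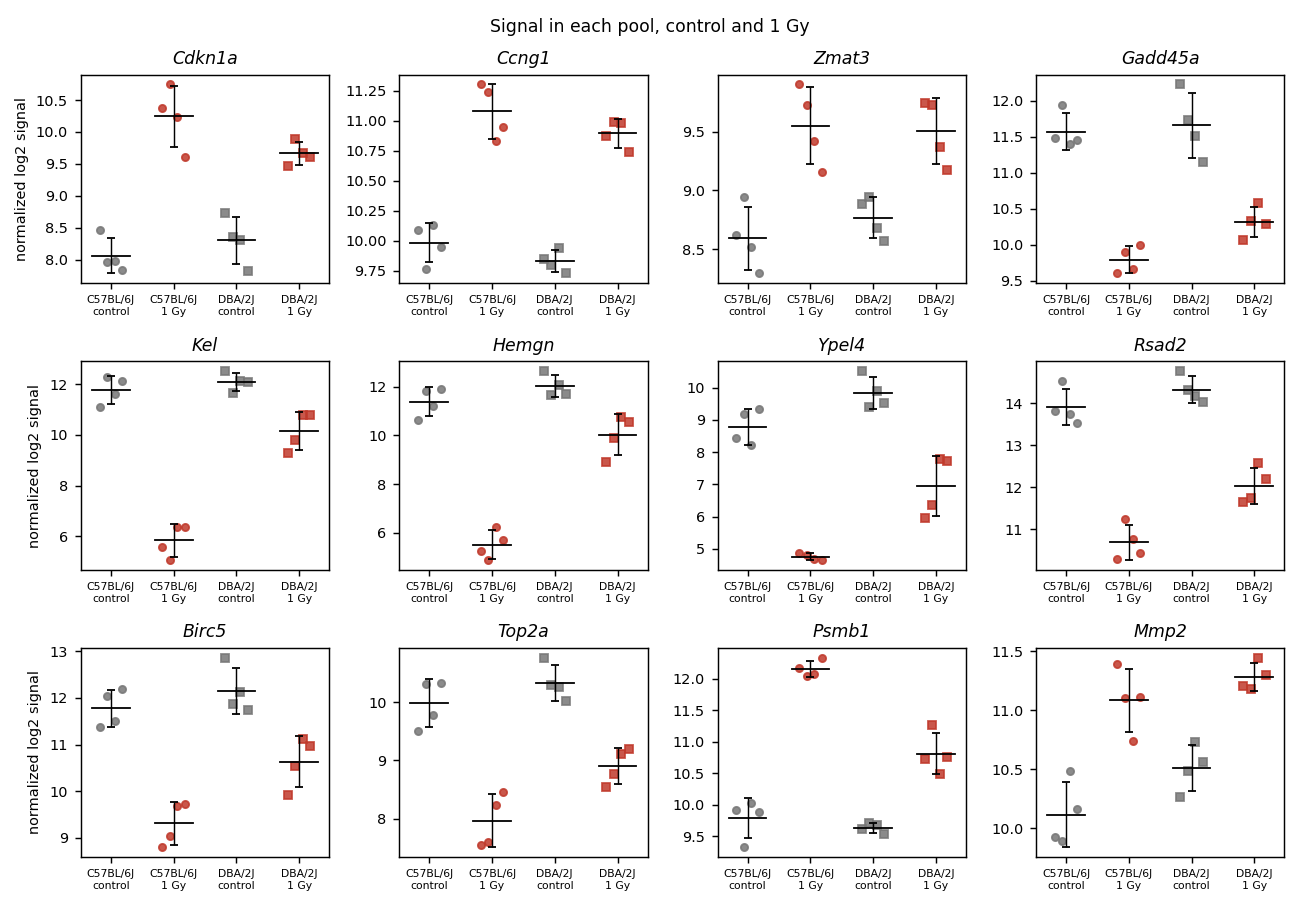
Normalized log2 signal of 12 genes in each of 16 pools (circles C57BL/6J, squares DBA/2J; grey control, red 1 Gy); lines are group means and bars the SD of 4 pools, with a separate y axis for each gene. For Cdkn1a, Ccng1, Zmat3, Psmb1 and Mmp2 the red points lie above the grey points of the same strain, and for the other 7 genes below.

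Several of the largest shared rises lay outside the p53 lists. Dglucy, D-glutamate cyclase, read 5.49, 5.68, 5.44 and 5.39 in the C57BL/6J control pools, 7.05, 7.21, 7.02 and 6.19 in the C57BL/6J 1 Gy pools, 5.45, 5.94, 5.83 and 6.05 in the DBA/2J control pools and 7.53, 7.73, 7.37 and 7.30 in the DBA/2J 1 Gy pools. It rose by 1.52 ± 0.14 (adjusted p = 1.70e-06), from levels near background in control pools. Matn1, a cartilage matrix protein gene, read 5.97, 5.70, 5.33 and 5.28 in the C57BL/6J control pools, 7.35, 7.38, 6.97 and 6.17 in the C57BL/6J 1 Gy pools, 5.66, 5.76, 5.75 and 5.76 in the DBA/2J control pools and 7.07, 7.06, 6.96 and 6.85 in the DBA/2J 1 Gy pools, a rise of 1.32 ± 0.15 (adjusted p = 9.46e-06). In each gene all irradiated pools were above all control pools. With the plain background mean the same rises were 0.14 and 0.11 and still called, so the size of a change in genes this dim depends on the background estimate. Of 207 called genes followed over the settings, 82 had a change smaller by over 1.5 times under that setting and 2 of them, Pidd1 and Cd177, lost their call. It brought Pard6g to 0.25, Coro1b to 0.33, Sectm1a to 0.12, Paxx to 0.29, Plk2 to 0.16, Ckap2 to -0.34, Bcl2l1 to -0.44, Bpgm to -0.29 and Tie1 to 0.089. Among rises called in both strains with pools apart, the other 12 of the 15 largest with a symbol, beside Dglucy, Matn1 and Cdkn1a, ran from 0.89 for Ctsd to 1.77 for Psmb1. They include Pard6g, a cell polarity adaptor (1.25 ± 0.16), Coro1b, an actin-binding coronin (1.10 ± 0.12), Sectm1a (1.07 ± 0.15), Ltc4s, which makes leukotriene C4 (1.03 ± 0.11), Cpxm1 (0.98 ± 0.15) and Paxx, a factor of DNA end joining (0.97 ± 0.085). Cdkn1c, the p57 inhibitor of cyclin-dependent kinases, was picked after its values were seen. It read 8.63, 8.45, 8.75 and 8.52 in the C57BL/6J control pools, 9.50, 9.84, 9.53 and 9.56 in the C57BL/6J 1 Gy pools, 8.88, 9.12, 9.09 and 8.84 in the DBA/2J control pools and 9.86, 10.12, 9.38 and 9.51 in the DBA/2J 1 Gy pools, higher in every irradiated pool, with a rise of 0.88 ± 0.11 (adjusted p = 2.18e-05).

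The gene that tied with Cdkn1a for the largest rise was Psmb1, a subunit of the proteasome core, the complex that degrades ubiquitin-tagged proteins. It read 9.92, 9.33, 10.03 and 9.89 in the C57BL/6J control pools, 12.17, 12.05, 12.08 and 12.33 in the C57BL/6J 1 Gy pools, 9.62, 9.71, 9.68 and 9.53 in the DBA/2J control pools and 10.73, 11.26, 10.49 and 10.77 in the DBA/2J 1 Gy pools. All irradiated pools were above all control pools, by 1.77 ± 0.18 (adjusted p = 4.51e-06), and the rise was larger in C57BL/6J. Of 27 proteasome genes measured, 3 rose and 2 fell (median -0.05), shares near the 11.8% higher and 8.17% lower of all features, and without single pools 1 to 4 rose. The other rises were Psmb10 (0.26) and Psmb8 (0.29), subunits of the immunoproteasome, and both calls were lost under median scaling, in the fit of 6 group means and without several single pools. Psme3, an activator of the core particle, read 11.43, 12.36, 12.25 and 12.15 in the C57BL/6J control pools, 11.18, 10.83, 10.73 and 11.30 in the C57BL/6J 1 Gy pools, 12.35, 12.19, 12.62 and 12.45 in the DBA/2J control pools and 11.10, 11.06, 11.80 and 11.66 in the DBA/2J 1 Gy pools. It was lower in the irradiated pools of each strain, with a change of -1.02 ± 0.15 (adjusted p = 0.0001).

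Red cell genes had the lowest values of the comparison. In the 5 erythroid lists 37 of 39 measured members fell and 0 rose; Hba-a1 and Steap3 did not pass. Of 13 genes of the red cell membrane and blood groups all 13 fell, with a median of -3.04. That median ran from -3.093 to -1.645 over the other settings. All 8 erythroid transcription and erythropoietin receptor genes fell (median -2.46), as did all 6 genes of heme synthesis (-1.58). Globin and gas transport genes fell in 6 of 7 cases (-1.53) and iron uptake genes in 4 of 5 (-1.86). The share of all features that fell was 8.17%. In bulk tissue, fewer cells of a type and less RNA per cell cannot be told apart, which holds for every cell type list here.

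Kel, which carries the Kell blood group, read 11.08, 12.29, 11.60 and 12.12 in the C57BL/6J control pools, 5.58, 5.06, 6.37 and 6.37 in the C57BL/6J 1 Gy pools, 12.52, 11.65, 12.13 and 12.08 in the DBA/2J control pools and 9.26, 9.79, 10.79 and 10.78 in the DBA/2J 1 Gy pools. The irradiated pools were lower in each strain and nearly at background in C57BL/6J, where the change was -5.93, against -1.94 in DBA/2J. The average change was -3.93 ± 0.54 (adjusted p = 6.67e-05). Hemgn (hemogen), a nuclear protein of erythroid cells, read 10.62, 11.81, 11.21 and 11.92 in the C57BL/6J control pools, 5.25, 4.88, 6.23 and 5.72 in the C57BL/6J 1 Gy pools, 12.65, 11.66, 12.07 and 11.72 in the DBA/2J control pools and 8.90, 9.88, 10.75 and 10.56 in the DBA/2J 1 Gy pools, and the order of the groups was the same as for Kel. Its change was -3.94 ± 0.54 (adjusted p = 5.99e-05). Hbq1b, a theta globin, read 10.21, 10.92, 10.13 and 10.48 in the C57BL/6J control pools, 5.16, 4.88, 5.14 and 4.93 in the C57BL/6J 1 Gy pools, 12.92, 11.89, 12.29 and 11.71 in the DBA/2J control pools and 8.66, 9.35, 10.44 and 10.15 in the DBA/2J 1 Gy pools. It was not detected in any C57BL/6J 1 Gy pool, so the fold there is a bound, at least 32.1-fold lower, from the control mean over the level at the detection limit or the probe's own signal, whichever is higher.

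The Kel and Hemgn promoters are shown because these are the 2 largest erythroid falls with a GATA site in the window; capitals mark AGATAA and CCNCNCCC on either strand, the letters bound by GATA1 and by the erythroid factor KLF1.

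Kel: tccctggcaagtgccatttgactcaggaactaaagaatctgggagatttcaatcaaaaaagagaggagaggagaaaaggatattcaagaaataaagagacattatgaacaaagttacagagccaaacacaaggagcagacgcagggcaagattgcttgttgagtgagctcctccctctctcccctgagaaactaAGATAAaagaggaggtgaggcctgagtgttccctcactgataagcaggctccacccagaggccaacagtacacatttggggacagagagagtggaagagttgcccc
Hemgn: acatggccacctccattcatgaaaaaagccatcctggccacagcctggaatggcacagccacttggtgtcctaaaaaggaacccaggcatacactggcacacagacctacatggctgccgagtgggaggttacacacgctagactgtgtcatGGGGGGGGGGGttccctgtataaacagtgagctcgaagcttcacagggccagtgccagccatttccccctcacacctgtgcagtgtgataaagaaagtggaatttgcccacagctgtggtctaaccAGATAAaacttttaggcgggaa

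The windows lie at chr6:41704276-41704575, minus strand, and chr4:46404134-46404433, minus strand (GRCm38.p6). The AGATAA letters begin at position -56 from the start of Kel and at 29 from that of Hemgn, and the run of G in Hemgn holds the CCNCNCCC letters on its other strand, from position -98. The Hbq1b window holds neither. AGATAA was found in 9 of 28 promoters of measured erythroid genes with an entry (32.1%) and in 11.4% of 27025 promoters. CCNCNCCC was found in 19 of 28 (67.9%) and in 49.1% of all promoters. That share was not particular to erythroid genes. The same letters occurred in 22 of 27 promoters of p53 targets (81.5%), 13 of 20 of mitosis genes (65%) and 15 of 25 of replication genes (60%).

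Most erythroid falls were called in each strain (30 of 39 members), yet only 4 were alike in size. Uros, a heme synthesis enzyme, read 10.20, 10.94, 10.27 and 10.97 in the C57BL/6J control pools, 8.56, 8.63, 8.56 and 8.64 in the C57BL/6J 1 Gy pools, 11.65, 10.60, 10.80 and 10.73 in the DBA/2J control pools and 9.15, 9.30, 9.90 and 9.72 in the DBA/2J 1 Gy pools, and changed by -1.71 ± 0.17 (adjusted p = 4.48e-06). Bpgm, which makes the regulator of oxygen release from hemoglobin, read 6.98, 7.59, 7.36 and 7.25 in the C57BL/6J control pools, 5.78, 5.81, 5.73 and 5.85 in the C57BL/6J 1 Gy pools, 9.34, 8.44, 8.28 and 8.42 in the DBA/2J control pools and 6.99, 6.85, 7.18 and 7.25 in the DBA/2J 1 Gy pools, and changed by -1.53 ± 0.13 (adjusted p = 1.28e-06). Both had 8 irradiated pools below the control pools of their strain. Ppox (-1.39 ± 0.15) and Hbq1a (-1.33 ± 0.20) were the others, and Hbq1a kept its call in both strains without 8 of 16 single pools.

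The regulators of the lineage fell as well. Klf1 changed by -3.28 ± 0.53, Gata1 by -1.91 ± 0.32 and Tal1 by -2.47 ± 0.35; Klf1 and Gata1 were not called in both strains (adjusted p = 0.0637 and 0.166). Alas2, the erythroid enzyme that begins heme synthesis, changed by -3.03 ± 0.36, and Slc4a1, the anion exchanger band 3, by -3.04 ± 0.48. The other large falls were those of Ermap (-3.59 ± 0.48), the spectrin gene Sptb (-3.47 ± 0.44, although its detection p missed 0.05 in every DBA/2J control pool), Rhag of the Rh complex (-3.37 ± 0.41), Tmcc2 (-3.31 ± 0.34), Tspo2 (-3.21 ± 0.42), dematin Dmtn (-3.18 ± 0.34), Pdzk1ip1 (-3.16 ± 0.38) and ankyrin Ank1 (-3.42 ± 0.44), whose second probe gave -0.40. Trim10 and Tspan8 were not detected in C57BL/6J 1 Gy pools, where the falls were at least 21.7-fold and 16.9-fold, and their changes in DBA/2J were -2.20 and -1.76. Tfrc, the transferrin receptor that brings iron into the cell, read 12.60, 14.09, 13.24 and 13.85 in the C57BL/6J control pools, 10.16, 10.06, 10.20 and 10.31 in the C57BL/6J 1 Gy pools, 13.96, 13.72, 13.37 and 13.38 in the DBA/2J control pools and 11.45, 11.62, 12.37 and 12.46 in the DBA/2J 1 Gy pools, with a change of -2.45 ± 0.28 (adjusted p = 9.56e-06). Irradiated pools of Tfrc were below all control pools. Adult globin probes, which near-identical copies can share, gave smaller values. Hbb-bt was at -0.28 ± 0.068, a call lost under median scaling, and Hba-a1 read 15.99, 15.99, 15.99 and 15.96 in the C57BL/6J control pools, 15.57, 15.99, 15.64 and 15.74 in the C57BL/6J 1 Gy pools, 15.99, 15.99, 15.88 and 15.96 in the DBA/2J control pools and 15.86, 15.96, 15.86 and 15.84 in the DBA/2J 1 Gy pools. These values lie at the top of the normalized scale, where differences are compressed, and the change was -0.16 ± 0.07 (adjusted p = 0.124).

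Ypel4, a member of the yippee-like family, read 8.42, 9.18, 8.21 and 9.34 in the C57BL/6J control pools, 4.87, 4.82, 4.67 and 4.65 in the C57BL/6J 1 Gy pools, 10.52, 9.38, 9.91 and 9.53 in the DBA/2J control pools and 5.96, 6.37, 7.78 and 7.72 in the DBA/2J 1 Gy pools. All irradiated pools of Ypel4 were below all control pools (adjusted p = 1.18e-06). The change in DBA/2J was -2.88, and in C57BL/6J, where no 1 Gy pool detected it, the fall was at least 10.2-fold. Alike falls outside the lists, picked after their values were seen, include genes known from maturing red cells. They are Ackr1, the Duffy blood group receptor (-2.66 ± 0.21), Abcb10, a mitochondrial transporter of heme synthesis (-2.36 ± 0.22), Slc6a9, a glycine transporter (-2.22 ± 0.20), Slc25a38, the mitochondrial glycine carrier (-1.25 ± 0.17), Eif2ak1, the heme-regulated kinase of translation (-1.14 ± 0.15), Blvrb (-1.07 ± 0.17), and Sox6, a repressor of embryonic globin (-1.15 ± 0.11). Genes of ubiquitin transfer and nuclear export were also among them: the conjugating enzyme Ube2l6 (-2.15 ± 0.17), Ubac1 (-1.91 ± 0.20), the exportin Xpo7 (-1.88 ± 0.17) and the ligase Mkrn1 (-1.61 ± 0.12). The autophagy kinase Ulk1 (-0.70 ± 0.098), the mitophagy gene Fbxo7 (-0.86 ± 0.14), the mitochondrial adaptor Trak2 (-1.35 ± 0.16) and the glutathione carrier Slc25a39 (-0.95 ± 0.081) fell too; Fbxo7 kept its call in both strains without 3 and Blvrb without 6 of 16 single pools. Gch1, which makes the cofactor tetrahydrobiopterin, changed by -1.78 ± 0.16.

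Most measured genes of cell division fell on average over the strains. Of 27 measured genes of mitosis and the spindle, 26 fell and 0 rose (median -1.23); Bub1 did not pass. The test of both strains called 18 of them, and 9 were alike. Of 30 genes of DNA replication and nucleotide synthesis, 27 fell and 0 rose (median -0.91), with 11 called in both strains and 4 alike. The background share of falls was 8.17%, or 2.46% in the test of both strains.

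Birc5 (survivin), a subunit of the chromosomal passenger complex, read 11.38, 12.03, 11.50 and 12.20 in the C57BL/6J control pools, 8.80, 9.04, 9.67 and 9.72 in the C57BL/6J 1 Gy pools, 12.86, 11.87, 12.12 and 11.75 in the DBA/2J control pools and 9.91, 10.53, 11.12 and 10.96 in the DBA/2J 1 Gy pools. Its irradiated pools lay below the control pools of the same strain, with a change of -1.99 ± 0.24 (adjusted p = 1.54e-05). Kif22, a chromosome-arm kinesin, read 11.01, 11.62, 10.85 and 11.42 in the C57BL/6J control pools, 7.90, 8.61, 9.62 and 9.25 in the C57BL/6J 1 Gy pools, 12.12, 11.52, 11.45 and 11.09 in the DBA/2J control pools and 9.75, 10.39, 10.43 and 10.34 in the DBA/2J 1 Gy pools, and changed by -1.85 ± 0.25 (adjusted p = 5.17e-05). Cdca3, a trigger of mitotic entry, read 12.78, 13.44, 12.89 and 13.34 in the C57BL/6J control pools, 10.11, 10.54, 11.35 and 11.24 in the C57BL/6J 1 Gy pools, 13.32, 12.47, 12.66 and 12.31 in the DBA/2J control pools and 10.89, 11.20, 11.62 and 11.51 in the DBA/2J 1 Gy pools, and changed by -1.84 ± 0.22 (adjusted p = 1.60e-05). The dose groups of both were separated in the same way as those of Birc5. Their promoters show the letters usual for late cell cycle genes; capitals mark TTTGAA (the CHR element) and CCAAT on either strand.

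Kif22: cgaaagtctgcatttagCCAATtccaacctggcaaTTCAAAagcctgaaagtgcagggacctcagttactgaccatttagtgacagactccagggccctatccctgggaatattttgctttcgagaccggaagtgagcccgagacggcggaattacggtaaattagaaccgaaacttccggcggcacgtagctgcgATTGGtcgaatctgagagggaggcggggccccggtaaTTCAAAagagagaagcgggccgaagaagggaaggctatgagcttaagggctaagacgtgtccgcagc
Cdca3: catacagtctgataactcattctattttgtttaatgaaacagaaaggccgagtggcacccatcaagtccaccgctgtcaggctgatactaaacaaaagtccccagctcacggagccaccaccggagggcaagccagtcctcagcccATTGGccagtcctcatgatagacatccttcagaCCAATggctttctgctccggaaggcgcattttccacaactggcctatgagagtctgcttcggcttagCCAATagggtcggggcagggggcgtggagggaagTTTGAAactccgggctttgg

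The Kif22 window (chr7:127042371-127042670, minus strand) has the CHR letters at positions -215 and -17 and CCAAT boxes at -233 and -54. The Cdca3 window (chr6:124829926-124830225, plus strand; both GRCm38.p6) has 1 CHR element, at position 31, and 3 CCAAT boxes, at -104, -71 and -4. The Birc5 window holds neither. The CHR letters were found in 15 of 20 promoters of measured mitosis genes with an entry (75%) and in 18.1% of 27025 promoters, and CCAAT in 14 of 20 (70%) against 37.9%. Among 25 replication promoters 3 held the CHR letters (12%) and 5 held the E2F site TTTCCCGC (20%), which occurred in 0 of 20 mitosis promoters and in 1.11% of all.

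Top2a, the topoisomerase that untangles chromosomes, read 9.51, 10.32, 9.78 and 10.34 in the C57BL/6J control pools, 7.55, 7.60, 8.24 and 8.45 in the C57BL/6J 1 Gy pools, 10.77, 10.30, 10.26 and 10.02 in the DBA/2J control pools and 8.54, 8.76, 9.12 and 9.19 in the DBA/2J 1 Gy pools. It was alike in the strains, changing by -1.73 ± 0.18 (adjusted p = 5.12e-06). Ccna2 (cyclin A2) read 5.28, 7.10, 6.33 and 6.74 in the C57BL/6J control pools, 4.83, 4.70, 4.60 and 5.03 in the C57BL/6J 1 Gy pools, 7.23, 6.33, 6.95 and 7.06 in the DBA/2J control pools and 5.03, 5.18, 5.72 and 5.54 in the DBA/2J 1 Gy pools. Irradiated pools of each strain were below its control pools (adjusted p = 4.66e-05), with a change of -1.52 in DBA/2J. No C57BL/6J 1 Gy pool detected Ccna2, so the fall there was at least 1.90-fold. Smc2 (-1.23 ± 0.16) and Smc4 (-0.63 ± 0.10) of condensin, Kif23 (-1.12 ± 0.14), Tacc3 (-1.06 ± 0.17), Melk (-0.98 ± 0.14), Ube2c (not detected in C57BL/6J 1 Gy pools, at least 1.51-fold lower there) and the checkpoint gene Mad2l1 (-0.76 ± 0.12) were the other alike members. Of these Ube2c kept its call in both strains without 7, Tacc3 and Mad2l1 without 9 and Smc4 without 10 of 16 single pools. Other probes gave -1.32 for Smc2, -1.25 and -0.61 for Smc4 and -0.60 for Kif23, so the size of a fall can depend on the probe. Kif2c was called on average (-0.79) with opposite signs in the strains, -1.62 in C57BL/6J and 0.044 in DBA/2J.

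Among replication genes, Rrm2, the regulated subunit of ribonucleotide reductase, read 9.56, 10.16, 9.66 and 9.97 in the C57BL/6J control pools, 6.92, 7.05, 7.74 and 7.91 in the C57BL/6J 1 Gy pools, 10.62, 9.55, 9.76 and 9.30 in the DBA/2J control pools and 7.86, 8.44, 8.80 and 8.62 in the DBA/2J 1 Gy pools, and changed by -1.90 ± 0.23 (adjusted p = 2.17e-05). Tyms, which makes thymidylate, read 9.21, 9.57, 8.96 and 9.55 in the C57BL/6J control pools, 7.37, 7.82, 7.89 and 8.20 in the C57BL/6J 1 Gy pools, 10.21, 9.35, 9.50 and 9.08 in the DBA/2J control pools and 8.086, 8.50, 8.88 and 8.43 in the DBA/2J 1 Gy pools, and changed by -1.28 ± 0.17 (adjusted p = 4.83e-05). Irradiated pools of each strain were below its control pools in both genes. Lig1 (-0.98 ± 0.15), Pole (-0.96 ± 0.12) and Gins4 (-0.47 ± 0.079) were alike, though Gins4 kept its call in both strains without 3 of 16 single pools, and Mcm2 of the replicative helicase changed by -1.31 ± 0.20. Pcna, the sliding clamp, is both a replication gene and a known p53 target; it changed by -0.67 ± 0.15 (adjusted p = 0.00419) and was not called in both strains. Regulators picked after their values were seen moved with these genes: E2f2 (-1.63 ± 0.18), Mybl2 (-1.50 ± 0.18), Cdc25c (-1.45 ± 0.17), and also the kinase inhibitors Cdkn2c (-0.95 ± 0.15) and Cdkn2d (-0.91 ± 0.11), while Cdkn1a and Cdkn1c rose. With the plain background mean Mybl2 was at -0.19 and Cdc25c at -0.18, while E2f2, Cdkn2c and Cdkn2d did not shrink by over 1.5 times. A second Cdkn2c probe gave -1.67.

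Of 13 genes of DNA break signalling and repair, 6 fell and 1 rose (median -0.24), against 11.8% higher and 8.17% lower over all features. H2ax, the histone variant phosphorylated at breaks, changed by -1.15 ± 0.17, and the checkpoint kinase gene Chek2 by -0.81 ± 0.13; both were alike, and without single pools the test of both strains called H2ax in 11 and Chek2 in 6 of 16 cases. Fancd2 (-1.31 ± 0.19), Rad54l (-1.27 ± 0.19), Brca1 (-0.69 ± 0.13) and Xrcc6 (-0.31 ± 0.099) fell on average. Alike falls picked after their values were seen include the helicase Brip1 (-0.81 ± 0.13) and the translesion polymerase Polh (-0.75 ± 0.12), which p53 is known to induce. Another was Atad5, which unloads the sliding clamp (-1.17 ± 0.13). The deposited detection p of Atad5 missed the threshold in every C57BL/6J 1 Gy pool. Signals there nevertheless reached 250, above the 104 to 140 found at the detection limit. Brip1 and Polh each kept the call in both strains without 5 of 16 single pools. Xrcc4, of end joining, rose by 0.37 ± 0.10 (adjusted p = 0.0159). The break sensors Mre11a and Rad50 and the kinase subunit Prkdc were not called, at -0.24, -0.095 and -0.06.

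**Figure D3:**
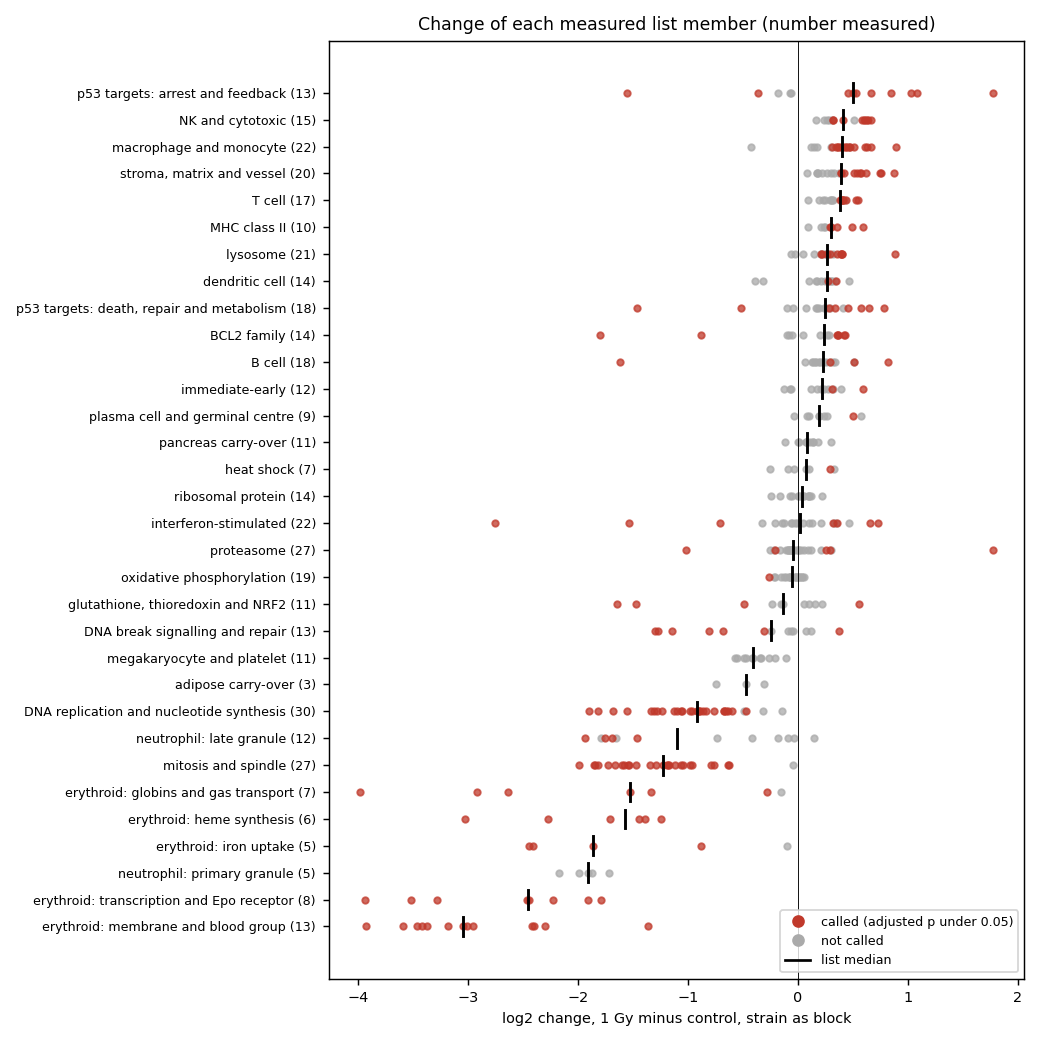
Change after 1 Gy (x axis, log2 difference with strain as a block) of every measured member of 32 gene lists, ordered by list median; red points were called, grey were not, black bars are medians, and the number measured stands in brackets. Erythroid, cell division and neutrophil granule lists have the lowest medians, with few called points in the neutrophil lists, and the medians of the p53, lymphoid, macrophage and stromal lists lie to the right of 0.

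Interferon-stimulated genes, many of which block viral growth, had 4 rises and 3 falls among 22 measured, with a median of 0.019, against 11.8% higher and 8.17% lower over all features. Rsad2 (viperin), an antiviral enzyme, had one of the largest falls shared by the strains. It read 13.82, 14.54, 13.75 and 13.53 in the C57BL/6J control pools, 10.30, 11.25, 10.77 and 10.43 in the C57BL/6J 1 Gy pools, 14.77, 14.31, 14.17 and 14.03 in the DBA/2J control pools and 11.65, 11.73, 12.57 and 12.19 in the DBA/2J 1 Gy pools. All 8 irradiated pools lay below all 8 control pools, with a change of -2.75 ± 0.21 (adjusted p = 7.34e-07). Isg20, an antiviral exonuclease, changed by -1.54 ± 0.17 (adjusted p = 9.71e-06) and was alike, and Cmpk2, a nucleotide kinase, by -0.71 ± 0.12 (adjusted p = 0.000312, and 0.0854 in the test of both strains). Ifit3 (0.89 in C57BL/6J and 0.42 in DBA/2J) and Parp14 (0.73 ± 0.13) rose on average. The deposited detection p of Ifit3 missed the threshold in every DBA/2J control pool. Signals there nevertheless reached 375, above the 104 to 140 found at the detection limit. A second Parp14 probe gave 0.076, so the probes of that gene disagree.

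Of 11 genes of glutathione, thioredoxin and the NRF2 response, which counter oxidative damage, 3 fell and 1 rose (median -0.13), against 11.8% higher and 8.17% lower over all features. Gclm, a subunit of the enzyme that starts glutathione synthesis (-1.64 ± 0.23), and Prdx2, an abundant red cell peroxiredoxin (-1.476 ± 0.16), were called in both strains. Slc7a11, the cystine transporter, rose by 0.56 ± 0.096 (adjusted p = 0.000536). Heat shock genes (1 of 7 rose, Bag3), immediate-early genes (2 of 12 rose, Egr1 and Egr2), ribosomal protein genes (0 of 14 called by limma, 2 at an unadjusted p under 0.05) and genes of oxidative phosphorylation (1 of 19 fell, Ndufv1) had medians of 0.073, 0.22, 0.034 and -0.052. Some of these calls were lost under other settings: Bag3 was called without 6 and Egr2 without 4 of 16 single pools, neither was called under cyclic loess or without both pools with pancreatic transcripts, and Ndufv1 was not called under median scaling or in the fit of 6 group means.

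Many transcripts of macrophages and of stroma and vessels were moderately higher, and those of lymphocytes in part. Of 22 macrophage and monocyte genes 16 rose and 0 fell (median 0.40), and of 20 genes of stroma, matrix and vessels 11 rose and 0 fell (0.39). NK and cytotoxic genes rose in 9 of 15 cases (0.41), T cell genes in 8 of 17 (0.38), lysosomal genes in 10 of 21 (0.26), and MHC class II genes in 5 of 10 (0.30). B cell genes had 3 rises and 1 fall among 18 (0.23), dendritic cell genes 2 rises in 14 (0.26) and plasma cell and germinal centre genes 1 rise in 9 (0.19). The share of all features that rose was 11.8%. Counts of T cell genes were the least firm: 1 of 17 rose in the fit of 6 group means over 23 arrays and 5 without both pools with pancreatic transcripts, and MHC class II genes rose in 2 to 6 cases over the alternatives. Apart from 3 stromal genes and Ctsd, no member of these lists was called in both strains, where 0.652% of all features were.

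Quantile normalization fixes the distribution of each array, so a large fall in some transcripts and a small relative rise in others were not measured independently. Under cyclic loess the median of all features was 0.0056 and under median scaling 0.078; the called rises were then 1464 and 2105, and the medians of the macrophage list were 0.37 and 0.45.

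Ctsd, the lysosomal protease cathepsin D, read 11.67, 11.30, 11.58 and 12.03 in the C57BL/6J control pools, 12.78, 12.58, 12.44 and 12.31 in the C57BL/6J 1 Gy pools, 11.60, 11.22, 11.48 and 11.44 in the DBA/2J control pools and 12.41, 12.23, 12.33 and 12.32 in the DBA/2J 1 Gy pools. It was the single lysosomal gene called in both strains and rose by 0.89 ± 0.099 (adjusted p = 9.08e-06), with every irradiated pool above every control pool. Mmp2, a gelatinase of stromal cells, read 9.92, 9.89, 10.49 and 10.17 in the C57BL/6J control pools, 11.39, 11.10, 10.74 and 11.11 in the C57BL/6J 1 Gy pools, 10.26, 10.49, 10.73 and 10.56 in the DBA/2J control pools and 11.21, 11.19, 11.45 and 11.30 in the DBA/2J 1 Gy pools, and rose by 0.87 ± 0.11 (adjusted p = 2.72e-05). Cldn5, the claudin of endothelial tight junctions, read 11.55, 11.73, 11.90 and 11.75 in the C57BL/6J control pools, 12.32, 12.57, 12.41 and 12.47 in the C57BL/6J 1 Gy pools, 11.14, 11.61, 11.28 and 11.30 in the DBA/2J control pools and 12.06, 12.33, 12.08 and 12.01 in the DBA/2J 1 Gy pools, and rose by 0.75 ± 0.083 (adjusted p = 8.36e-06). In Mmp2 and Cldn5 the dose groups did not overlap within a strain. Tie1, an endothelial receptor kinase, rose by 0.57 ± 0.085. Alike rises outside the lists, picked after their values were seen, include other genes known from endothelium and stroma: Edn1 (endothelin, 0.67 ± 0.094), Mmrn2 (0.66 ± 0.091), Hey1 (0.62 ± 0.10), Nkx2-3, needed for spleen vessels (0.56 ± 0.071), Il33 (0.61 ± 0.093) and the macrophage growth factor Csf1 (0.58 ± 0.10). Further ones were the lipoprotein receptor gene Vldlr (0.80 ± 0.088), Igfbp4 (0.59 ± 0.097), the cytokine feedback gene Socs2 (0.53 ± 0.086) and Cd86, a costimulatory ligand (0.41 ± 0.065). With the plain background mean Vldlr was at 0.089, Edn1 at 0.13 and Hey1 at 0.20, all still called. These sizes therefore depend on the background estimate. Vldlr passed the detection p in 2 control and 1 irradiated C57BL/6J pools, and in 1 control and 2 irradiated DBA/2J pools. Over the other settings the lowest values were 0.60 for Mmrn2, 0.44 for Nkx2-3, 0.45 for Il33 and 0.43 for Csf1. They were 0.55 for Igfbp4, 0.44 for Socs2 and 0.36 for Cd86. The calls in both strains were often lost here on leaving out 1 pool: they were kept without 2 of 16 single pools for Cd86, 3 for Hey1 and Csf1, 4 for Socs2, 5 for Il33 and Igfbp4, 7 for Tie1, 12 for Mmrn2 and 14 for Edn1.

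Among macrophage genes, Timd4, a receptor for dying cells, read 10.72, 10.76, 10.39 and 10.81 in the C57BL/6J control pools, 11.76, 11.62, 11.32 and 11.47 in the C57BL/6J 1 Gy pools, 10.30, 10.48, 10.60 and 10.95 in the DBA/2J control pools and 11.01, 11.07, 11.05 and 11.004 in the DBA/2J 1 Gy pools. All irradiated pools were above the control pools of their strain, and the rise was 0.66 ± 0.11 (adjusted p = 0.000323), but 0.11 in the test of both strains. Spic, the transcription factor of red pulp macrophages, rose by 0.63 ± 0.11, Hmox1, which breaks down heme, by 0.61 ± 0.11, and Slc40a1, the iron exporter ferroportin, by 0.47 ± 0.12. Their changes were of like size in the strains, for example 0.45 and 0.49 for Slc40a1. Cd37 (0.82 ± 0.17) and Vpreb3 (0.50 ± 0.13) rose among B cell genes, while Cd24a, which erythroid precursors also carry, changed by -1.62 ± 0.29 (adjusted p = 0.000771). Cd5 (0.54 ± 0.15), Prf1 (0.67 ± 0.20) and H2-DMa (0.59 ± 0.11) led the called T cell, cytotoxic and MHC class II genes. The calls for Cd5, Prf1 and Vpreb3 were lost in the fit of 6 group means, and that for Prf1 also without both pools with pancreatic transcripts and without any of 5 single pools.

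Granulocyte and platelet genes had medians of opposite sign in the strains, a difference that was not tested for these lists. Of 5 primary granule genes of neutrophils limma called 0, with 5 lower at an unadjusted p under 0.05. All 5 were called in the fit of 6 group means, in that of 4 group means averaged over strains, and without any 1 of DBA/2J control replicates 3 and 4 and DBA/2J high dose replicates 3 and 4, and 2 and 1 without DBA/2J control replicate 2 and DBA/2J high dose replicate 1. Of 12 late granule genes 4 fell (Ngp, Camp, Fcnb and Cd177), against 8.17% of all features, and 1 to 6 fell without single pools. Of 11 megakaryocyte and platelet genes 0 were called by limma, and 0 had an unadjusted p under 0.05; without single pools at most 1 was called. The medians in C57BL/6J and DBA/2J were -4.33 and 0.56 for primary granule genes, -2.26 and 0.29 for late granule genes, and -1.32 and 0.52 for platelet genes. Ngp and Camp are among the 14 called features with opposite signs, and the calls for Ngp, Camp and Cd177 were lost under several alternatives.

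The 1 Gy pools were also set against the 10 cGy pools, as the exposure most like it. Of 15881 features tested, 433 were higher (2.73%) and 324 lower (2.04%) after 1 Gy than after 10 cGy, and 4260 had an unadjusted p under 0.05. Under median scaling the split was 821 higher and 293 lower. This count rests on few pools: it was 130 without DBA/2J low dose replicate 3, 135 without replicate 1 and 1709 without replicate 2 of that group of 3. The comparison shares its 1 Gy pools with the one against control, so its values stand beside those above and add no independent support.

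Ccng1 separated the doses. Its 10 cGy pools read 10.19, 10.19, 10.17 and 10.28 in C57BL/6J and 10.01, 10.03 and 9.94 in DBA/2J, all below every 1 Gy pool, and the difference was 0.88 ± 0.089 (adjusted p = 0.000116). Cdkn1a did so in C57BL/6J, at 8.78, 8.57, 8.44 and 8.52 after 10 cGy, but in DBA/2J the 10 cGy pools, at 9.95, 9.56 and 9.56, overlapped the 1 Gy pools. Its difference over both strains was 0.88 ± 0.25 (adjusted p = 0.0535). Zmat3 (0.68 ± 0.13, adjusted p = 0.0155), Psmb1 (1.27 ± 0.22, 0.0102), Dglucy (1.477 ± 0.24, 0.00649) and Mmp2 (0.91 ± 0.12, 0.00159) were called higher after 1 Gy.

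Erythroid genes were lower after 1 Gy than after 10 cGy as well: 12 of 13 membrane genes, 6 of 8 transcription genes and 5 of 6 heme synthesis genes were called, with medians of -2.02, -1.45 and -1.07. Globin and gas transport genes were called lower in 4 of 7 cases (median -1.08) and iron uptake genes in 2 of 5 (-1.12). The share of all features called lower was 2.04%. Kel read 8.43, 8.16, 10.66 and 7.26 in the C57BL/6J and 12.96, 11.16 and 13.40 in the DBA/2J 10 cGy pools, and the difference was -2.58 ± 0.46 (adjusted p = 0.011). In C57BL/6J these values lie between the control and the 1 Gy pools, and in DBA/2J 2 of 3 lie above all control pools. Of 26 mitosis genes 12 were called lower (median -1.06), and of 30 replication genes 4 (median -0.77), against 2.04% of all features. Birc5 read 10.03, 9.95, 10.72 and 10.13 and 13.29, 11.77 and 13.38 in the 10 cGy pools, above every 1 Gy pool of the same strain, and the difference was -1.49 ± 0.30 (adjusted p = 0.0183). Rsad2 was at 12.45, 12.17, 12.98 and 11.39 and 14.54, 13.46 and 14.51, above every 1 Gy pool of the same strain, with a difference of -1.83 ± 0.25 (adjusted p = 0.00189).

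**Figure D4:**
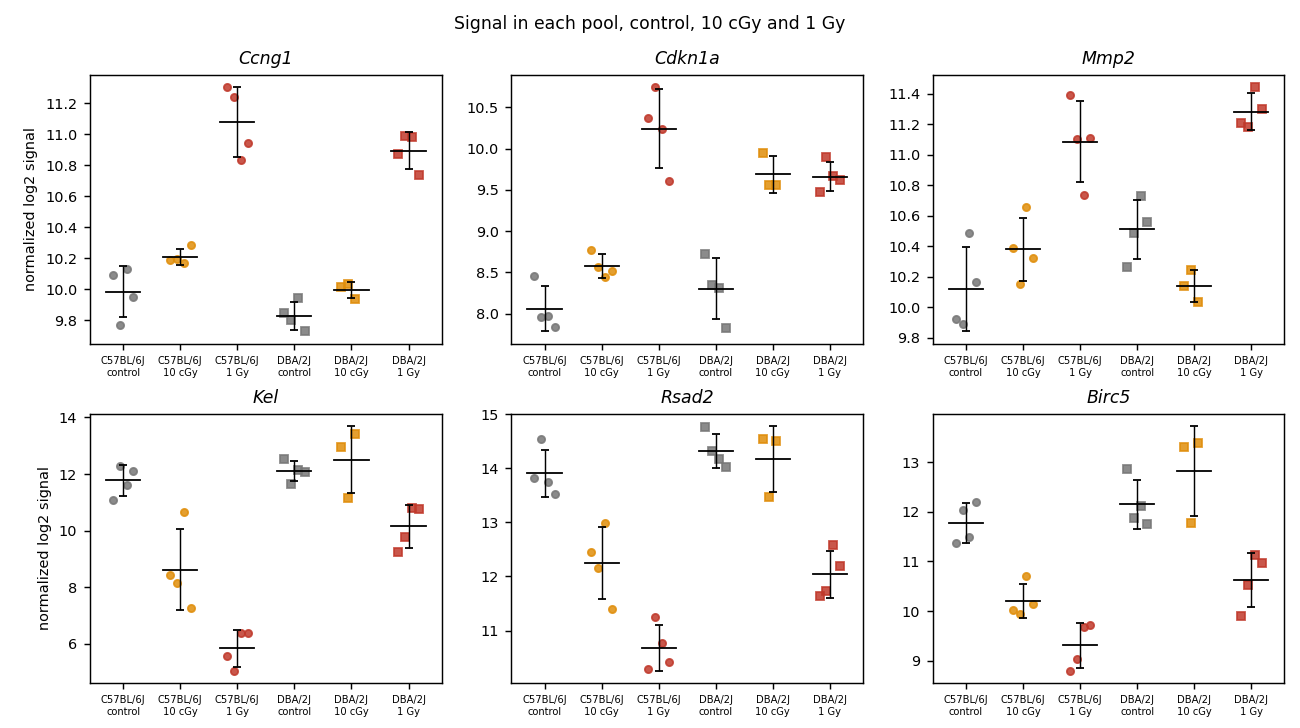
Normalized log2 signal of 6 genes in each pool of control (grey), 10 cGy (orange) and 1 Gy (red) groups, circles C57BL/6J and squares DBA/2J; lines are group means, bars the SD of 4 pools (3 for DBA/2J 10 cGy), and each gene has its own y axis. Ccng1 after 1 Gy lies above every other pool, while Cdkn1a in DBA/2J is as high after 10 cGy as after 1 Gy.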

How the data were processed

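Gene expression was measured on 23 one-colour Illumina arrays. The authors deposited a linear signal intensity and a detection p-value per probe and array, not normalized per the file headers, and processed log2 values by a transform that these sources do not state. The submitters' processing notes name lumi without a version. From 34492 probes, background was inferred per array from the detection p-values by weighted median and MAD, corrected by normexp (offset 16) and quantile normalized over all arrays (limma 3.58.1, R 4.3.3). The plain mean of that inference (158 to 227) lies above the signal at a detection p of 0.05 (104 to 140), and 572 to 737 bright probes per array carry detection p-values that do not follow their signal; the medians were 80.9 to 112. The deposited detection p under 0.05 on at least 4 compared arrays kept 17243 probes; the brightest probe stood for a symbol. Linear models had strain and dose, or 4 group means, and p-values were adjusted over all features. Scripts were tested on simulated data.

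Gene names came from the platform annotation (20256 probes with 1 symbol, 9 with several, 14227 with none). Promoters are RefSeq's. Named genes are the 15 largest rises and falls called in both strains with pools apart, up to 6 called members of each of 32 lists (454 of 612 members measured), and 9 p53 targets; others are said to be picked later. Members and lists were chosen with earlier results of these data known. The precision is limited by the number of arrays.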

Additional observations from a re-analysis of the deposited data

Results flagged for a closer look

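In groups of 4 pools, 268 group values (35 genes printed by pool and 32 list means) were checked for 1 pool lying far from the other 3, by Dixon's 95% criterion. It marked 14, and chance marks about 1 in 20. Pancreatic genes stood apart in C57BL/6J control replicate 1 (mean 13.74, the others between 5.22 and 5.502) and in C57BL/6J high dose replicate 1 (14.05, the others at most 6.84), and macrophage genes in the same control pool (11.43). Adipose genes stood apart in C57BL/6J control replicate 3 (5.29, below) and C57BL/6J high dose replicate 1 (6.33, above), B cell genes in C57BL/6J control replicate 3 (10.99) and late granule genes in C57BL/6J high dose replicate 4 (8.72, below). DBA/2J control replicate 1 was marked for repair genes (9.06, above), plasma cell and germinal centre genes (9.46, below), Bpgm (9.34, above) and Matn1 (5.66, below). The other marks were Gadd45a in C57BL/6J control replicate 2 (11.95), Hba-a1 in C57BL/6J control replicate 4 (15.96) and Kif22 in DBA/2J high dose replicate 1 (9.75, below).

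Of the 35 genes, 4 had a 1 Gy change that differed between the strains by an interaction term in limma (Benjamini-Hochberg over 16112 features, of which 119 were called). The change in DBA/2J minus that in C57BL/6J was -1.19 for Psmb1 (adjusted p = 0.0191), 3.99 for Kel (adjusted p = 0.000998), 3.87 for Hemgn (adjusted p = 0.00177) and 2.86 for Hbq1b (adjusted p = 0.00418). Each kept its direction in both strains.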

How the results depend on the processing

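No paired analysis was possible because no groups share a pool number and replicate numbers follow accession order. The 3223 calls ranged from 2339 (6 group means over 23 arrays) to 3502 (filter on signal, added after seeing the data) and from 2661 to 3352 on leaving out single pools. The 502 calls in both strains became 248 with the plain background mean and 158 with 6 group means, and ran from 296 to 528 without single pools; the values without DBA/2J control replicate 1 (296), DBA/2J high dose replicate 1 (301) and replicate 2 (296) moved by over 1.5 times. The 757 calls against low dose became 132 (plain background mean), 200 (authors' values), 255 (no filter) and 3675 (6 group means). They ran from 130 to 1709 without single pools. That range includes 347 without C57BL/6J high dose replicate 1, since the control pool with pancreatic transcripts does not enter this comparison. With the plain background mean, changes of dim genes shrank, for example Dglucy to 0.14, Matn1 to 0.11, Bpgm to -0.29, Plk2 to 0.16 and Bcl2l1 to -0.44. Some brighter genes shrank too, such as Ank1, which averaged 10.80 in control pools, to -2.09. Over 209 named genes and all other settings, 3006 values kept direction and call and 87 lost the call; without single pools these counts were 3189 and 152. Fas turned to 0.60 without a filter and with the filter on signal (another probe), and ran from -0.16 to 0.0038 without single pools, the latter without DBA/2J control replicate 1. Of 124 followed genes called in both strains, 76 kept that call without each of 16 single pools in turn, and 15 kept it without fewer than 8 of them, down to 2 for Cd86; Zmat3 and Ephx1 kept it without 11, Kif22 without 11 and Plk2 without 12. Signals near background and at the top of the scale limit what can be read.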
